A study of Homo sapiens with 4 samples.

Results

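The semaphorin, plexin, ephrin and Eph receptor families, with the netrins, the UNC5 receptors and the Slit and Robo proteins, were followed in the human keratinocyte line HaCaT, which grows without limit in culture. The members were the protein-coding genes whose symbols belong to these families, 68 of the 55536 genes in the deposited table. The rule for members used names and no measured value, but it was chosen with earlier results of these data known. Polyadenylated RNA was sequenced in 4 libraries. There were 2 libraries from cells labelled NC, a label that is not spelled out, and 2 from cells given a lentivirus to raise the level of TYMP, which encodes thymidine phosphorylase. The cells were harvested in Trizol after 48 hours, without any treatment being named beyond the virus. The promoter that drives TYMP, the vector carried by the NC cells and the number of clones behind each line are not stated. Nor is it stated whether replicate libraries derive from different cultures, and the p-values therefore reflect only how these samples vary, which may be technical.

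These genes encode cell-surface and secreted cues that were first described in growing axons and that also act between epithelial cells. Semaphorins signal through plexins, and the secreted class 3 semaphorins mostly need a neuropilin as coreceptor. Ephrins are held on the membrane and bind Eph receptor tyrosine kinases on neighbouring cells, with signals running into both cells, whereas the secreted netrins and Slits bind UNC5, DCC and Robo receptors. In the epidermis, keratinocytes are a known source of SEMA3A, which repels sensory nerve fibres, and ephrin-A1 with its receptor EPHA2 is tied to keratinocyte differentiation.

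The libraries held 16209663 to 17000821 counted reads each. The TYMP gene itself, at 281 and 264 reads in NC against 1221 and 1100 in TYMP libraries, rose 4.30-fold (edgeR adjusted p = 1.47e-06). All 6 keratinocyte markers were detected, and their summed level was 1996 to 2178 FPKM in the NC libraries and 2724 to 2782 FPKM in the TYMP libraries. FPKM is the authors' read count scaled by gene length and by the total of counted reads. KRT5, KRT14 and DSG3 were the 3 markers that rose, and the part of this shift in the results below was not tested. None of the markers of fibroblasts, endothelium, leukocytes, melanocytes and neurons reached a mean of 1 FPKM, and the highest sum of any of these 5 lists was 1.04 FPKM in a library.

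Of the 68 guidance genes, 42 had enough reads to be tested and 26 did not. The untested ones had between 0 and 32 reads over all 4 libraries together. They included most netrins and UNC5 receptors (8 of 10), most Eph receptors (8 of 14) and most Slit and Robo genes (4 of 7), but none of the 9 plexins. EPHA7, EFNA2, ROBO2 and SEMA7A had no read in any library. Their RNA was not detectable here, which does not show that it was absent, since PRPF8, a spliceosome gene used by every cell, was also listed at 0 in all 4 libraries.

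**Figure D1:**
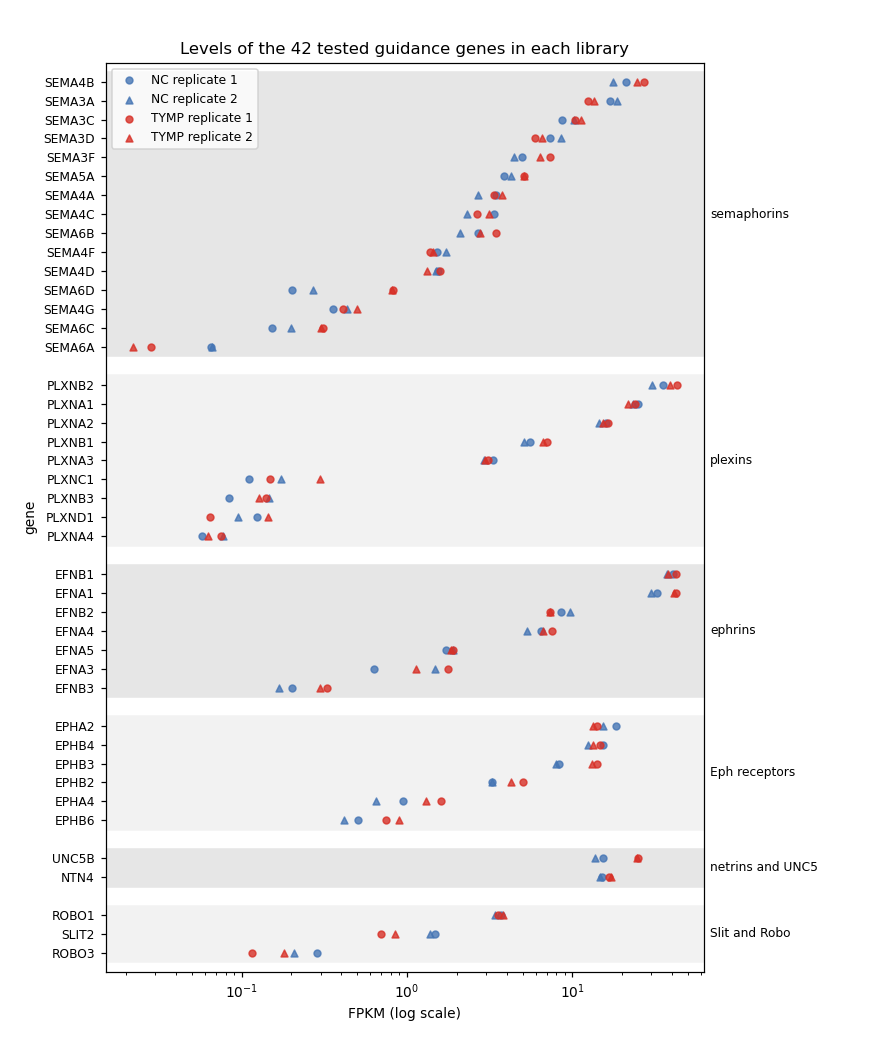
Level of each tested guidance gene in each library, in FPKM on a log axis, with genes grouped by family and sorted by mean level; blue marks NC and red TYMP libraries, circles replicate 1 and triangles replicate 2. The highest genes were EFNB1, PLXNB2 and EFNA1, at means of 39.7, 36.9 and 36.5 FPKM over the 4 libraries, and the lowest tested gene was SEMA6A at 0.0453 FPKM.

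In the TYMP libraries 6 guidance genes rose and 2 fell. The risers were the semaphorins SEMA6D and SEMA3F, the receptors UNC5B, EPHB3 and EPHB2, and the ligand EFNA1. The fallers were the secreted ligands SEMA3A and SLIT2. Calls were made with edgeR (quasi-likelihood F test on the whole table) at an adjusted p under 0.05. The 6 rises were 14.3% of the 42 tested members, against 2.09% of all 14380 tested genes. The 2 falls were 4.76% of the tested members, against 1.23% of all tested genes. In either direction this made 8 of 42, or 19.0%, against 3.32% of all tested genes. The median log2 fold change was 0.18 over the tested members and -0.01 over all tested genes. No test was made of these shares, and a filter that asks for reads in 2 libraries can keep a gene through 1 group alone. The number of rises was 3 without TYMP replicate 1 and 10 without NC replicate 1, and the number of falls was 1 and 3. Without NC replicate 2 there were also 3 falls, EPHA2 being the added one.

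**Figure D2:**
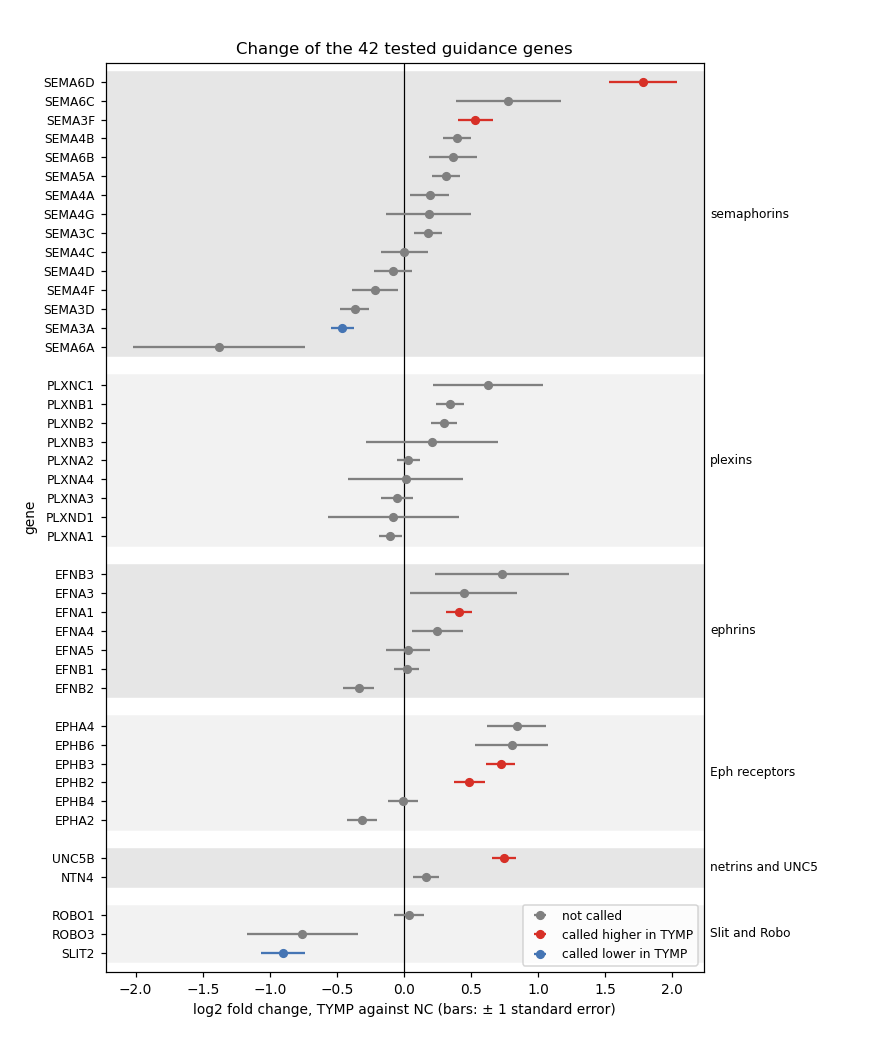
The log2 fold change of each tested guidance gene, TYMP against NC, with bars of 1 standard error on either side, grouped by family and sorted by size; red genes were called higher, blue genes lower, grey genes were not called. SEMA6D lies farthest to the right at 1.78, SLIT2 is the lowest called gene at -0.90, and no plexin is coloured.

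Among the semaphorins, 15 of 20 genes were tested, of which 2 rose, 1 fell and 12 were not called. SEMA6D, a membrane-bound semaphorin that binds PLXNA1, changed most. It lies on the plus strand of chromosome 15 between 47184101 and 47774223 (GRCh38). Its reads numbered 29 and 38 in NC and 113 and 116 in TYMP. Both TYMP libraries thus stood far above both NC libraries, although the gene stayed at a low level, 0.816 ± 0.00309 FPKM in TYMP against 0.234 ± 0.0482 in NC (SD, n = 2 per group). The rise was 3.44-fold (log2 fold change 1.78 ± 0.25 SE, edgeR adjusted p = 0.00156). It was called under the alternatives that could test it, though the filter of 5 CPM kept it through the TYMP libraries alone, and on FPKM it was too low to be tested.

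The secreted class 3 semaphorins did not move in 1 direction. SEMA3A lies on chromosome 7 from 83955777 to 84492724, minus strand, and was at 158 and 172 CPM in NC and at 116 and 124 CPM in TYMP. CPM here are read counts relative to TMM-scaled library totals. The groups did not overlap, and SEMA3A was 1.37-fold lower (log2 fold change -0.46 ± 0.09 SE, edgeR adjusted p = 0.00987). This call was lost without TYMP replicate 1 (adjusted p = 0.093) and on FPKM (0.0934 and 0.0945 with pseudocounts of 1 and 0.1). SEMA3F, on the plus strand of chromosome 3 between 50155045 and 50189075, was at 24.3 and 21.4 CPM in NC and at 35.6 and 30.5 CPM in TYMP. It rose 1.44-fold (log2 fold change 0.53 ± 0.13 SE, edgeR adjusted p = 0.0449). That call stood close to the threshold. It was lost with limma-voom (adjusted p = 0.0607), on FPKM (0.106 and 0.104), without NC replicate 2 (0.0917) and without TYMP replicate 1 (0.354). Exons of the antisense gene SEMA3F-AS1 overlap those of SEMA3F, but it had between 2 and 8 reads in a library. SEMA3A favours NRP1 and SEMA3F favours NRP2 as coreceptor. The level of SEMA3A was 3.39 and 4.20 times that of SEMA3F in the NC libraries, in FPKM, and 1.71 and 2.12 times in the TYMP libraries. Both genes were called, in opposite directions, so this ratio restates those calls.

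The other genes of this class near SEMA3A on chromosome 7 are SEMA3C, SEMA3D and SEMA3E. SEMA3D had 61.6 and 71.2 CPM in NC against 49.2 and 53.7 in TYMP, a log2 fold change of -0.37 ± 0.11 SE that was not called (edgeR adjusted p = 0.108), while without NC replicate 1 it was called (-0.47, adjusted p = 0.00718), as it was with no filter on low counts (0.0286). SEMA3C, at 53.7 and 62.5 CPM against 64.1 and 67.6, had a log2 fold change of 0.18 ± 0.11 SE (adjusted p = 0.493). SEMA3E had 3 reads in all. These genes were named after their values were seen.

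SEMA4B, a membrane-bound class 4 semaphorin, had the highest level of the family. Its level was 21.2 and 17.7 FPKM in NC and 27.3 and 24.5 FPKM in TYMP. The groups did not overlap, but the log2 fold change of 0.39 ± 0.10 SE was not called (edgeR adjusted p = 0.0607). It was called with DESeq2 (adjusted p = 0.0283), upper-quartile scaling (0.0412), no scaling factor (0.0325), no filter on low counts (0.00212), without NC replicate 1 (7.79e-05) and without TYMP replicate 2 (0.0152). SEMA6A, of the same class as SEMA6D, had 12 and 12 reads in NC and 5 and 4 in TYMP, a log2 fold change of -1.38 ± 0.64 SE that was not called (adjusted p = 0.347). SEMA5A, a semaphorin with thrombospondin repeats, was at 47.8 and 52.5 CPM in NC against 63.1 and 61.7 in TYMP (log2 fold change 0.32 ± 0.10 SE, adjusted p = 0.147). SEMA6B, SEMA6C, SEMA4A, SEMA4C, SEMA4D, SEMA4F and SEMA4G were not called, with log2 fold changes from -0.21 to 0.78. SEMA4G shares exon sequence on the opposite strand with MRPL43, which had 385 to 473 reads, so its 32 to 44 reads are uncertain.

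**Figure D3:**
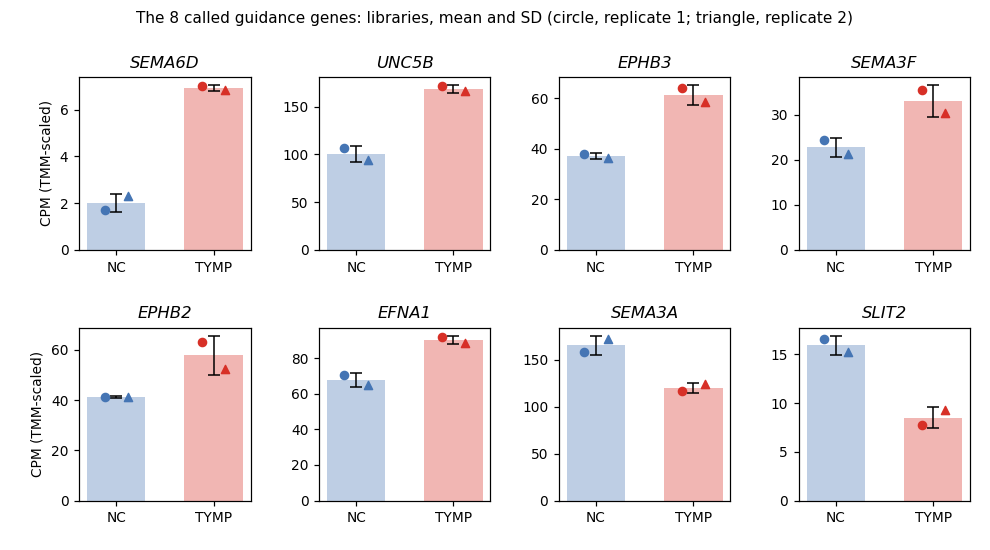
The 8 called guidance genes in CPM after TMM scaling, with an axis from 0 in each panel; bars give the mean of 2 libraries, error bars the SD, circles replicate 1 and triangles replicate 2. In each panel both TYMP libraries lie on 1 side of both NC libraries, from SEMA6D at 1.73 and 2.29 against 7.01 and 6.83 CPM to SLIT2 at 16.6 and 15.2 against 7.76 and 9.25 CPM. Members that were not called, such as NTN4 and SEMA3C, also lay apart in this way. The 8 genes shown were picked by their calls, so lying apart is no further support for them. The share of all tested genes that lay apart was not counted.

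None of the plexins, the receptors of semaphorins, was called. All 9 were tested, and their median log2 fold change was 0.03. PLXNB2, a receptor of class 4 semaphorins, had the highest level, 35.5 and 30.3 FPKM in NC and 42.9 and 39.1 FPKM in TYMP. The TYMP libraries stood above the NC libraries, with a log2 fold change of 0.30 ± 0.10 SE that was not called (edgeR adjusted p = 0.136), though it was called without NC replicate 1 (0.43, adjusted p = 0.00216) and with no filter on low counts (0.0381). PLXNB2 lies on chromosome 22, 218 kb from TYMP, and no link between this distance and its level was tested. PLXNB1, a receptor of SEMA4D, was at 54.7 and 50.2 CPM in NC against 69.0 and 63.9 in TYMP (log2 fold change 0.34 ± 0.10 SE, adjusted p = 0.113; 0.41 and 0.0364 without NC replicate 1). PLXNA1, which pairs with neuropilins and also binds SEMA6D, was at 25.0 and 23.3 FPKM in NC and 23.9 and 21.6 in TYMP, and the groups overlapped (log2 fold change -0.10 ± 0.09 SE, adjusted p = 0.673). PLXNA2 and PLXNA3 had means of 15.6 and 3.07 FPKM over the libraries, with overlapping groups. PLXNC1, PLXNB3, PLXND1 and PLXNA4 stayed under 0.3 FPKM in every library, and the exons of PLXNC1 overlap those of CEP83, which had 562 to 646 reads.

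The coreceptor NRP1 fell along with its ligand SEMA3A. NRP1 was at 58.4 and 57.9 CPM in NC and at 42.9 and 40.8 in TYMP, 1.39-fold lower (log2 fold change -0.48 ± 0.10 SE, edgeR adjusted p = 0.0239). The call was lost on FPKM (adjusted p = 0.126 and 0.119) and without TYMP replicate 1 (0.0794) or TYMP replicate 2 (0.159). NRP2, named after its value was seen, was at 101 and 97.0 CPM against 114 and 110 (log2 fold change 0.18 ± 0.09 SE, adjusted p = 0.38). MET, the receptor of hepatocyte growth factor, which can form complexes with plexins, was 1.40-fold lower (266 and 286 CPM against 196 and 199, log2 fold change -0.48 ± 0.08 SE, adjusted p = 0.00414). On FPKM it missed the threshold (0.0511 and 0.0529).

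Among the Eph receptors, 2 of the 6 tested genes rose and none of the 6 fell. Both were EphB receptors, which bind the B ephrins. EPHB3, on the plus strand of chromosome 3 between 184561784 and 184582409, had 639 and 602 reads in NC and 1033 and 995 in TYMP. This rise was 1.65-fold, from 8.15 ± 0.213 to 13.6 ± 0.664 FPKM (SD, n = 2 per group). Its edgeR log2 fold change was 0.72 ± 0.11 SE (adjusted p = 0.00203), and it was called under all 14 alternatives. EPHB2, on the plus strand of chromosome 1 between 22710839 and 22921500, was at 41.4 and 41.1 CPM in NC and at 63.3 and 52.4 CPM in TYMP. It rose 1.40-fold (log2 fold change 0.49 ± 0.12 SE, edgeR adjusted p = 0.0391). The TYMP libraries differed more from each other than the NC libraries did, and the call was lost without TYMP replicate 1 (log2 fold change 0.35, adjusted p = 0.409). It was also lost with limma-voom (0.0534) and on FPKM (0.154 and 0.149).

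The other tested Eph receptors were not called. EPHA2 had the highest level, 18.4 and 15.4 FPKM in NC and 14.1 and 13.4 in TYMP, with no overlap (log2 fold change -0.31 ± 0.11 SE, edgeR adjusted p = 0.193; -0.44 and 0.0123 without NC replicate 2). EPHB4 stood next at 15.3 and 12.5 against 14.7 and 13.3 FPKM, and the groups overlapped (log2 fold change -0.01 ± 0.11 SE, of either sign under other scalings). Its exons overlap those of SLC12A9 on the opposite strand, which had 491 to 622 reads in a library. EPHA4, a receptor that binds both ephrin classes and was named after its value was seen, had 122 and 82 reads in NC and 196 and 165 in TYMP. Its log2 fold change of 0.84 ± 0.22 SE was not called (adjusted p = 0.0574). It was called with upper-quartile scaling (0.0464), no scaling factor (0.0366), no filter on low counts (0.00385), without NC replicate 1 (log2 fold change 1.14, 0.00034) and without TYMP replicate 2 (0.00548). EPHB6, which lacks kinase activity, had 46 and 37 reads against 64 and 80 (log2 fold change 0.80 ± 0.27 SE, adjusted p = 0.165).

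Of the 8 ephrins 7 were tested, and 1 rose. EFNA1, the ligand of EPHA2, was at 32.3 and 30.0 FPKM in NC and at 42.2 and 41.5 FPKM in TYMP. Both TYMP libraries stood above both NC libraries, with a rise of 1.33-fold (log2 fold change 0.41 ± 0.09 SE, edgeR adjusted p = 0.0325). EFNA1 lies on the plus strand of chromosome 1 between 155127460 and 155134857. The call was lost on FPKM (adjusted p = 0.0588 and 0.0601), without NC replicate 2 (0.0765), TYMP replicate 1 (0.184) or TYMP replicate 2 (0.113). EFNA3 and EFNA4, beside it on chromosome 1, EFNA5 and the sparse EFNB3 were not called, with log2 fold changes from 0.03 to 0.73. EFNB1, the most abundant guidance gene, was at 40.9 and 37.5 FPKM in NC and 42.4 and 38.0 in TYMP, with overlap (log2 fold change 0.02 ± 0.09 SE, adjusted p = 0.954; negative without NC replicate 2 or TYMP replicate 1). EFNB2, another ligand of EPHB2 and EPHB3, was at 43.5 and 48.5 CPM in NC and at 36.7 and 36.1 CPM in TYMP, a log2 fold change of -0.34 ± 0.11 SE that was not called (adjusted p = 0.15). In FPKM, EPHB3 was 0.966 and 0.827 times EFNB2 in the NC libraries and 1.93 and 1.79 times in the TYMP libraries. Against the more abundant EFNB1, EPHB3 was 0.203 and 0.213 times in NC and 0.332 and 0.346 times in TYMP.

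Of the netrins and their UNC5 receptors, only NTN4 and UNC5B were expressed well enough to test. UNC5B, a repulsive netrin receptor that can also signal cell death when its ligand is missing, lies on the plus strand of chromosome 10 between 71212570 and 71302864. It had 1788 and 1565 reads in NC and 2760 and 2817 in TYMP. Its level went from 14.6 ± 1.14 to 24.8 ± 0.194 FPKM (SD, n = 2 per group), a gap far wider than the spread within either group. The rise was 1.68-fold (log2 fold change 0.75 ± 0.09 SE, edgeR adjusted p = 0.000436), called under all 14 alternatives and the smallest p among the members. NTN4, a secreted netrin that binds laminins of the basement membrane, was at 15.2 and 14.6 FPKM in NC and 16.7 and 17.2 in TYMP (log2 fold change 0.17 ± 0.09 SE, adjusted p = 0.47). In FPKM, UNC5B was 1.01 and 0.940 times NTN4 in the NC libraries and 1.49 and 1.43 times in the TYMP libraries. NTN1, the classical ligand of UNC5 receptors, had 4 to 11 reads a library. DCC, the other netrin receptor, had no read, and its relative NEO1 had a mean of 0.481 FPKM.

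SLIT2, the secreted ligand of Robo receptors, fell. It lies on the plus strand of chromosome 4 between 20253260 and 20620561 and had 279 and 252 reads in NC and 125 and 157 in TYMP. The level was 1.43 ± 0.0797 FPKM in NC and 0.772 ± 0.107 in TYMP (SD, n = 2 per group), with no overlap. The count test gave a 1.87-fold fall (log2 fold change -0.90 ± 0.16 SE, edgeR adjusted p = 0.00782). On FPKM the fall was smaller and not called. Its log2 fold change was -0.45 (limma adjusted p = 0.188) with a pseudocount of 1 and -0.81 (0.21) with 0.1. A pseudocount shrinks the changes of low genes, but why the call was lost was not tested. ROBO1, its main receptor here, was at 3.69 and 3.39 FPKM in NC and 3.56 and 3.79 in TYMP, with overlap (log2 fold change 0.04 ± 0.11 SE, adjusted p = 0.929; negative without NC replicate 2). In FPKM, SLIT2 was 0.401 and 0.404 times ROBO1 in NC and 0.196 and 0.224 times in TYMP. ROBO3 had 34 and 24 reads in NC, 13 and 21 in TYMP, and no call (adjusted p = 0.442). In these bulk libraries, fewer cells expressing a gene and less RNA per cell cannot be told apart.

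Upstream sequences are shown for called genes of different families and directions. The table of RefSeq promoters (GRCh38.p14) held 58 of the 68 members and 6 of the 8 called genes. The 250 bases before the RefSeq start are printed for SEMA6D, with the largest rise, SLIT2, with the largest fall, and the EphB receptors EPHB3 and EPHB2. All are written 5′ to 3′ on the gene's plus strand, and capitals mark the GC box GGGCGG or its reverse complement CCGCCC. The SLIT2 window ends at 20251904, upstream of the GENCODE start of 20253260 given above, so the RefSeq and GENCODE starts differ for this gene. Whether transcription began at these starts cannot be read from gene counts.
SEMA6D, chr15:47183839-47184088: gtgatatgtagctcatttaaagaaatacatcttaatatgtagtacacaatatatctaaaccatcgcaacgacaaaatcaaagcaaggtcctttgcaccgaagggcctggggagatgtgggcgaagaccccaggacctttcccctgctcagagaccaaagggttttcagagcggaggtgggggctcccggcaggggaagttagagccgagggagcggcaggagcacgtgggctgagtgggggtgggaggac
SLIT2, chr4:20251655-20251904: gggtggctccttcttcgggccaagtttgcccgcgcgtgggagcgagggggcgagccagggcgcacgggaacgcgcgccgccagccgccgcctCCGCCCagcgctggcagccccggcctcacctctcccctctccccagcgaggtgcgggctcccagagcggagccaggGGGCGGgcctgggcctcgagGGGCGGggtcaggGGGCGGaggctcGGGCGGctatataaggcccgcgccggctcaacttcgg
EPHB3, chr3:184561535-184561784: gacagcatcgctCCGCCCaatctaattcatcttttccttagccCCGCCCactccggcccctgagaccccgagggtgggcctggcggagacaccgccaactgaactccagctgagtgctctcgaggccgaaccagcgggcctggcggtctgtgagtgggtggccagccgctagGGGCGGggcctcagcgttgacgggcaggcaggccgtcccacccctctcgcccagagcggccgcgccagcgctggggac
EPHB2, chr1:22710588-22710837: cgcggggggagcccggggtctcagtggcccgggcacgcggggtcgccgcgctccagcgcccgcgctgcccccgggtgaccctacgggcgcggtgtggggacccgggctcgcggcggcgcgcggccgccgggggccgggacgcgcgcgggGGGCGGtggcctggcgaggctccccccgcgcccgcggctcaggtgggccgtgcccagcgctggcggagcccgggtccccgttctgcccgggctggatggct
The SEMA6D window held no GC box and was 53.6% G and C, while the SLIT2 window held 5, the EPHB3 window 3 and the EPHB2 window 1, at 77.2%, 70.0% and 84.8%. A GC box was present in 4 of the 5 windows of risers, in the SLIT2 window, in 24 of 31 of tested members that were not called, and in 42.6% of all 35114 windows of this length. Each member was given 1 window, while the share of all windows counts every window of this length, whatever its gene. The median of all windows was 58.0% G and C. The AP-1 motif TGANTCA and the TEAD motif GGAATG were in none of the 6 called windows, against 6.57% and 11.9% of all windows on either strand. Among the 31 windows of tested members that were not called, they were in 1 and 3. With 6 called windows, these counts cannot show a lack of either motif. The RBPJ motif TGGGAA, through which Notch signals act, was in 1 of the 6, that of SEMA3F. It was in 4 of the 31 windows not called and in 20.8% of all. A GC box can overlap another GC box in these counts. The motifs were chosen with the results known, and a match is a description of letters only.

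**Figure D4:**
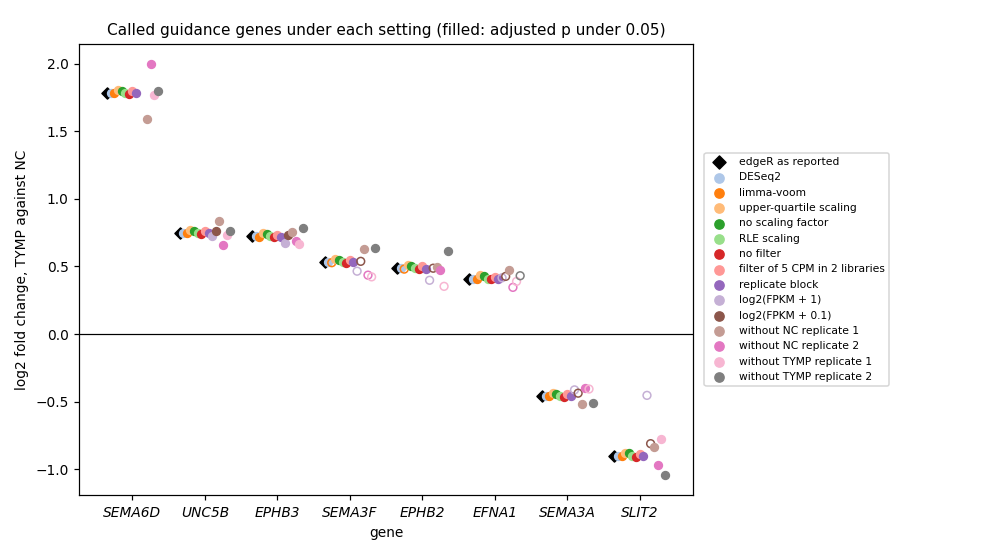
The log2 fold change of the 8 called guidance genes as reported (black diamonds) and under each alternative (coloured circles), filled where the adjusted p was under 0.05. UNC5B, EPHB3 and SEMA6D are filled throughout, at 0.66 to 0.84, 0.66 to 0.78 and 1.59 to 1.99, and no gene crosses 0.

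Outside the families, 87 genes in 4 lists of coreceptors, other ligands and receptors, and cytoplasmic effectors were followed, of which 75 were tested. In these lists 1 gene rose (1.33%) and 6 fell (8%), read beside 2.09% and 1.23% of all tested genes, and the median log2 fold change was 0.01. Of 13 tested coreceptors and other ligands and receptors, NRP1 and MET fell as given above. Of 25 tested semaphorin and plexin effectors, 2 fell and 23 were not called. MICAL2, which oxidises actin filaments, was 1.46-fold lower (102 and 91.7 CPM against 66.7 and 65.6, edgeR adjusted p = 0.0055). RND3 was 1.34-fold lower (226 and 253 CPM against 170 and 186, adjusted p = 0.0182), but was not called without TYMP replicate 1 (0.173).

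Of 20 tested Eph and ephrin effectors, VAV3 rose and 19 were not called. Among those not called, SRC had 20 and 124 reads in NC and 126 and 17 in TYMP. Its change was therefore not resolved (log2 fold change 0.02 ± 1.67 SE). VAV3, which Eph receptors recruit, was at 8.63 and 13 CPM in NC and at 27.1 and 23.4 in TYMP. It rose 2.33-fold (log2 fold change 1.22 ± 0.18 SE, edgeR adjusted p = 0.00203). Of 17 tested Robo and netrin effectors, 2 fell and 15 were not called. ABL2, a tyrosine kinase that binds actin, was 1.50-fold lower (135 and 158 CPM against 96.8 and 98.3, adjusted p = 0.00354). TRIO was 1.27-fold lower (200 and 189 CPM against 160 and 146, adjusted p = 0.0426). That call was lost with limma-voom (0.0534), with upper-quartile scaling (0.0546) and without any library but NC replicate 2 (0.0719 to 0.401). On FPKM none of these 5 effectors was called, with adjusted p from 0.0522 (VAV3) to 0.177 (TRIO).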

How the data were processed

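Per the labels' protocols, polyadenylated RNA of HaCaT cells was sequenced in 2 NC and 2 TYMP libraries. The deposited table holds, per the file headers, raw read counts and FPKM of each gene. HISAT2, HTSeq 0.13.5 and GRCh38 are named without roles in the submitters' processing notes, and the annotation, strand setting and treatment of multiply matching reads were not known here. Counts of overlapping genes are therefore uncertain. Each deposited FPKM above 0 equalled the count over a whole-number length and the column total (87668 of 87668 values, within 0.001 bases).

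Counts were tested with edgeR 4.0.16 in R 4.3.3 (filterByExpr, TMM, robust quasi-likelihood F test), with Benjamini-Hochberg adjustment over 14380 genes and a threshold of 0.05. Standard errors were taken from the F statistic. An exact permutation of 2 against 2 cannot go below p = 0.333. Alternatives used DESeq2 1.42.0, limma-voom (limma 3.58.1), other scalings and filters, blocking by replicate number, leaving out single libraries, and limma on log2 FPKM for genes with a mean of at least 1 FPKM. With a library left out, the lone library was taken to vary as the other group did. The procedure was tested on simulated counts. Coordinates and exon overlaps came from GENCODE 29 on GRCh38.

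The members and lists were chosen with earlier results of these data known. Named by rule were called members, the 2 members of each family with the highest mean FPKM, tested members with a log2 fold change of at least 1 in size, and up to 5 called genes of each list. The remaining names were chosen after their values were seen. Each ratio between genes includes a called gene, so it restates that call and is not separate support. Replicates differed beyond counting noise (chi-square per degree of freedom 7.94 for NC and 6.33 for TYMP).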

Additional observations from a re-analysis of the deposited data

How the results depend on the processing

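Of the counts of guidance genes, those under DESeq2, limma-voom, other scalings and other count filters stayed within 1.5 times of 6 higher and 2 lower. limma on log2(FPKM + 1) and on log2(FPKM + 0.1) called 2 higher and 0 lower members, and 0 of the pathway genes in either direction, while calling 165 and 170 genes in all against 478. That test differs from the main one in its model as well as its unit. With no filter on low counts 732 genes were called in all, and with a library left out 393 to 716. With a library left out, 3 to 10 members were higher and 1 to 3 lower, and 1 to 2 pathway genes were higher and 3 to 6 lower. With the replicate number as a block, edgeR called 11 members higher and 5 lower and 5 pathway genes higher and 11 lower, among 2024 genes in all. That fit leaves fewer residual degrees of freedom than the main one. SEMA4B and EPHA4 were among the added members called higher (edgeR adjusted p = 1.14e-05 and 0.0025), with SEMA5A, PLXNB1 and PLXNB2. The added members called lower were EPHA2, EFNB2 and SEMA3D. The deviations of same-numbered libraries from their group means correlated at 0.12 over the tested genes. With 2 libraries per group both pairs give this same value by construction, so it is a single estimate. Whether it reflects a pairing was not tested. The labels do not say whether a number marks a shared batch or day.

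Of 33 genes recomputed one by one (the called genes, those named by rule and some of the other named genes), 10 values changed sign, each of a gene that was not called. The log2 fold change of EPHB4, -0.01 as reported, was 0.018 with upper-quartile scaling, 0.012 with no scaling factor, 0.0085 with the filter of 5 CPM and 0.016 and 0.017 on FPKM. With a library left out it ran from -0.154 to 0.156, that of EFNB1 from -0.070 to 0.108 and that of ROBO1 from -0.035 to 0.107. The cause was not tested. Of the other values, 377 kept their direction and side of the threshold, 41 lost a call and 26 gained one. SEMA6D and SEMA6A were below the FPKM filter. Low depth limits genes such as SEMA6A, whose 33 reads gave a standard error of 0.64.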
